A study of Arabidopsis thaliana with 12 samples.

Results

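The aquaporins of Arabidopsis thaliana were followed in developing siliques with and without extra non-symbiotic hemoglobin. The family was taken as 35 loci, of which 13 encode PIPs, 10 TIPs, 9 NIPs and 3 SIPs, and a probe set was named for 8 of them: PIP1.1, PIP2.3, PIP2.6, TIP1.2, TIP2.1, TIP3.1, TIP3.2 and NIP6.1 (names follow the study, with a point where RefSeq has a semicolon). All 8 probe sets received their gene name from the study's supplementary table of genes past its thresholds, and 0 of them from the annotation of the array platform. These 8 genes were therefore in view because they had already passed a threshold in at least 1 of 4 comparisons of the same arrays (4.62% of all probe sets did so in the fit used here), and they are no sample of the family. The other 27 loci, including all 3 SIPs, were not analysed here.

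Aquaporins are membrane channels that let water, and in some members other small neutral molecules, pass down a gradient. PIPs sit mainly in the plasma membrane, TIPs in the membrane of the vacuole (the tonoplast), many NIPs carry solutes such as boric acid, and SIPs are found in the endoplasmic reticulum. In seeds, the TIP3 proteins are abundant in the membrane of protein storage vacuoles and accumulate while the embryo matures.

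The study compared Col-0 wild type (WT) with T3 plants of LeB4::AtHb1, in which the seed-specific LeB4 promoter drives AtHb1, a hemoglobin whose overexpression was tested for its part in the response to low oxygen. Whole 45-day-old plants, with seeds 11 to 12 days after pollination, were kept for 1 h in darkness at 10.5% oxygen (hypoxia) or at 21% oxygen (control), and siliques were taken from them after freezing. Each genotype under each oxygen level, 4 groups in all, had 3 ATH1 arrays, and each replicate pooled 70 to 80 siliques. The overexpressor on the arrays was 1 line, so that its insertion and the transgene cannot be told apart, and whole siliques hold both seeds and the silique wall. In such bulk RNA, fewer cells of a type and less RNA per cell cannot be told apart.

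Values are log2 signals of the robust multi-array average (RMA), in which a difference of 1 is a 2-fold change. A gene is written as called where its limma adjusted p was under 0.05 and its change over 2-fold. The AtHb1 probe set, itself named through the same table, read 5.88 to 6.14 in control and 9.06 to 9.14 under hypoxia in WT. In the overexpressor it read 10.48 to 12.06 in control and 10.38 to 11.12 under hypoxia. This followed the genotype labels, and the oxygen labels in WT. The oxygen groups of the overexpressor overlapped (hypoxia difference -0.78), so this gene does not check their oxygen labels. Array medians lay between 7.45 and 7.61. The 3' minus 5' signal over 6 pairs of Arabidopsis control probe sets, a measure of RNA integrity, was 1.25 to 1.36 in WT control and 1.38 to 1.46 in WT hypoxia, against 1.75 to 1.90 and 1.75 to 1.97 in the matching AtHb1 groups. This measure did not overlap between genotypes, so it cannot be told apart from genotype in any difference between AtHb1 and WT below.

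The plasma membrane channel gene PIP2.6 (AT2G39010) had the widest gap between genotypes at normal oxygen among the 8. Its log2 signal was 10.51, 10.59 and 10.71 in WT control and 10.55, 10.57 and 10.56 in WT hypoxia. The AtHb1 arrays read 8.57, 8.47 and 8.68 in control and 9.01, 9.22 and 9.06 under hypoxia. Every AtHb1 array was below every WT array, and the hypoxic AtHb1 arrays lay above the AtHb1 controls while the WT groups overlapped. AtHb1 was lower than WT by a log2 difference of -2.03 (SE 0.08), which is 4.08-fold, at normal oxygen and by -1.46 under hypoxia.

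PIP1.1 (AT3G61430) encodes a member of the PIP1 group, proteins that commonly reach the plasma membrane together with PIP2 partners. It read 10.70, 10.78 and 10.58 in WT control and 11.18, 11.24 and 11.19 in WT hypoxia. In AtHb1 it read 10.42, 10.29 and 10.18 in control and 10.12, 10.28 and 9.91 under hypoxia. WT arrays were higher under hypoxia without overlap, whereas the AtHb1 groups overlapped. The gap between genotypes was -0.39 (SE 0.09) in control and -1.1 (SE 0.09) under hypoxia.

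The probe set for PIP2.3 (AT2G37180) is of the kind that can bind transcripts of several related genes. Its neighbour on the chromosome is PIP2.2, a near-identical copy, so the signal may belong to either gene. In WT it read 11.73, 11.79 and 11.54 in control and 12.09, 12.12 and 12.09 under hypoxia. In AtHb1 the values were 10.67, 10.61 and 10.94 in control and 10.91, 11.17 and 11.02 under hypoxia. All AtHb1 arrays were below all WT arrays, by -0.95 in control and -1.07 under hypoxia (SE 0.10 for both).

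**Figure D1:**
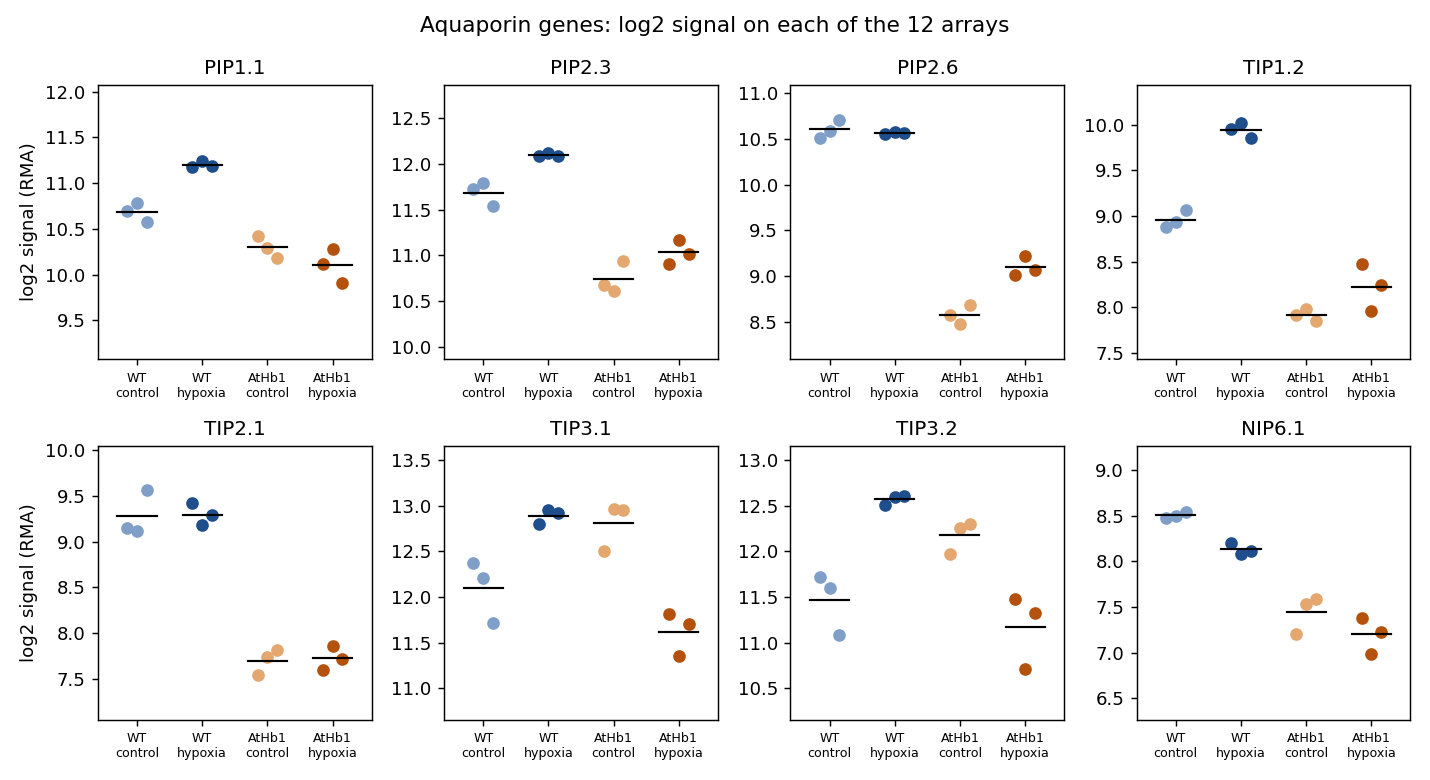
Each panel shows 1 aquaporin gene, with the RMA log2 signal of the 3 arrays per group as points and the group mean as a line. Every vertical axis spans 3 log2 units, and levels are not comparable between panels. PIP1.1, PIP2.3, PIP2.6, TIP1.2, TIP2.1 and NIP6.1 were lower in both AtHb1 groups than in both WT groups. TIP3.1 and TIP3.2 were high in WT hypoxia and AtHb1 control and low in the other groups.

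Among the tonoplast channels, TIP2.1 (AT3G16240), also called delta-TIP and able to carry ammonia besides water, separated the genotypes and not the treatments. In WT it read 9.15, 9.12 and 9.56 in control and 9.42, 9.18 and 9.29 under hypoxia. In AtHb1 the values were 7.54, 7.74 and 7.81 in control and 7.59, 7.86 and 7.72 under hypoxia. The genotype difference was -1.58 (SE 0.12) under both oxygen levels. The hypoxia difference was 0.02 in WT and 0.02 in AtHb1, each smaller than its SE of 0.12.

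TIP1.2 (AT3G26520) encodes a tonoplast channel of vegetative tissues. It read 8.88, 8.93 and 9.07 in WT control, and 9.95, 10.02 and 9.85 in WT hypoxia. In AtHb1 it read 7.92, 7.98 and 7.85 in control, and 8.47, 7.96 and 8.24 under hypoxia. The WT hypoxia arrays were the highest and did not overlap the WT controls, with a difference of 0.98 (SE 0.11), whereas the AtHb1 groups overlapped, with a difference of 0.30 (SE 0.11). AtHb1 was below WT by -1.04 in control and by -1.72 under hypoxia.

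TIP3.1 (AT1G73190, alpha-TIP) and TIP3.2 (AT1G17810, beta-TIP) are the seed-specific tonoplast aquaporins. In WT TIP3.1 read 12.37, 12.21 and 11.71 in control and 12.80, 12.95 and 12.92 under hypoxia. In AtHb1 the values were 12.50, 12.96 and 12.95 in control and 11.81, 11.35 and 11.70 under hypoxia. In WT TIP3.2 read 11.72, 11.60 and 11.08 in control and 12.51, 12.59 and 12.60 under hypoxia. In AtHb1 the values were 11.97, 12.25 and 12.30 in control and 11.48, 10.71 and 11.32 under hypoxia. Both were high in WT hypoxia and AtHb1 control and low in WT control and AtHb1 hypoxia.

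For TIP3.1 the hypoxia difference was 0.79 in WT and -1.18 in AtHb1 (SE 0.17 for both). For TIP3.2 it was 1.1 in WT and -1.0 in AtHb1 (SE 0.18 for both). The genotype difference turned as well, from 0.71 in control to -1.27 under hypoxia for TIP3.1 and from 0.70 to -1.40 for TIP3.2. For both genes the arrays did not overlap between treatments within a genotype, or between genotypes at the same oxygen level.

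In the groups other than WT hypoxia, the TIP3 genes also varied more between replicates than most probe sets. Their SD in WT control was 0.35 for TIP3.1 and 0.34 for TIP3.2, against a median of 0.09 over all probe sets. In WT hypoxia it was 0.08 for TIP3.1 and 0.05 for TIP3.2, against a median of 0.08. WT control replicate 3 deviated from its group mean by -0.39 for both genes on the log2 scale. In 4 of 4 groups the array with the lowest TIP3.1 signal was also the one with the lowest TIP3.2 signal. In WT hypoxia that array deviated by only -0.09 and -0.05. In AtHb1 hypoxia that array, replicate 2, was also the lowest for TIP1.2 and NIP6.1, and the highest for PIP1.1, PIP2.3, PIP2.6 and TIP2.1.

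OLEO3, an oil body protein gene of the embryo, was the 1 gene of 12 in the embryo storage list with a named probe set. Its means in WT were 13.47 ± 0.05 in control and 13.62 ± 0.01 under hypoxia, and in AtHb1 13.38 ± 0.21 and 13.42 ± 0.28 (SD, n = 3). No OLEO3 difference passed limma's test, and the difference of its hypoxia responses was -0.12. A single gene does not measure embryo content, and the part of seed stage or seed share in the TIP3 pattern was not tested.

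**Figure D2:**
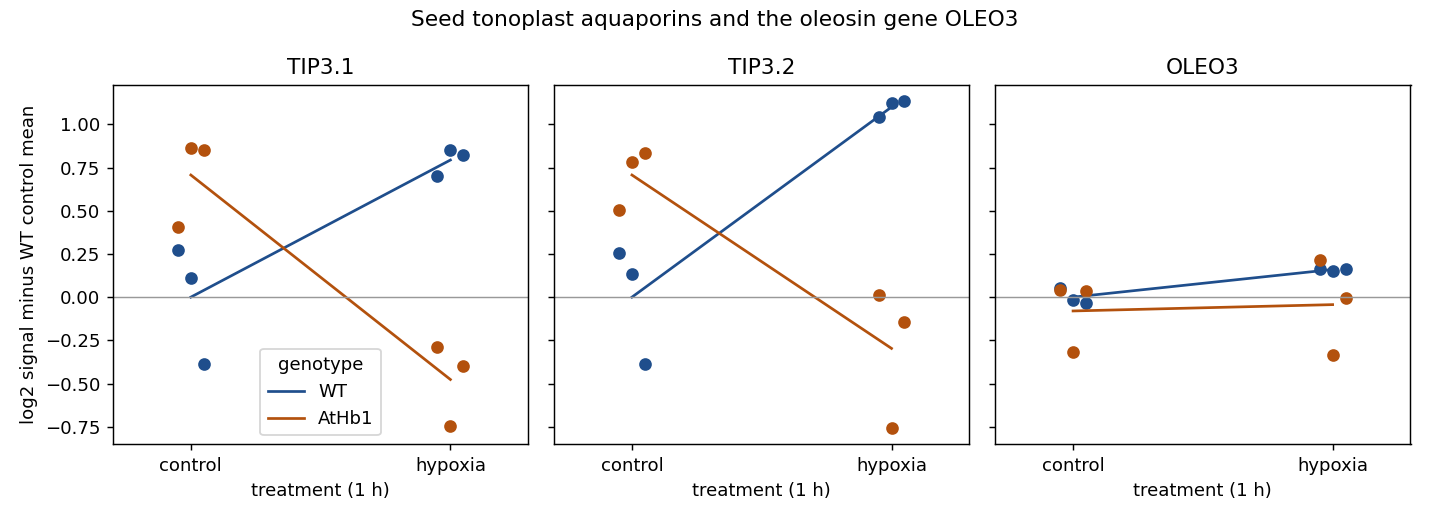
Log2 signal minus the WT control mean of the same gene is shown for the 3 arrays of each group (points) with lines joining the group means, for TIP3.1, TIP3.2 and OLEO3 in WT and AtHb1. The TIP3 lines crossed, with hypoxia differences of 0.79 and 1.1 in WT and -1.18 and -1.0 in AtHb1, while OLEO3 differed by 0.16 and 0.04.

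NIP6.1 (AT1G80760), a boric acid channel known from the nodes of the shoot, was lower in AtHb1 than in WT. In WT it read 8.47, 8.50 and 8.54 in control and 8.20, 8.08 and 8.11 under hypoxia. In AtHb1 the values were 7.20, 7.53 and 7.59 in control and 7.38, 6.99 and 7.23 under hypoxia. The genotypes did not overlap, with differences of -1.06 in control and -0.93 under hypoxia (SE 0.11 for both). The hypoxia difference in WT was -0.38 (SE 0.11), and its limma adjusted p of 0.0275 rose to between 0.0547 and 0.0962 in 5 of the 6 fits that left out a WT array, and to 0.128 and 0.0512 with the 3' minus 5' signal from 6 or 3 control pairs as a covariate.

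Counted over the 8 genes, AtHb1 control against WT control called 4 lower (PIP2.6, TIP1.2, TIP2.1 and NIP6.1), where 0.972% of 22746 probe sets were called lower. Under hypoxia 7 were called lower in AtHb1 than in WT, all but NIP6.1, against 0.95% of all probe sets. In WT hypoxia against control, TIP3.2 was called higher, against a background of 1.53%. In AtHb1 hypoxia against control, TIP3.1 and TIP3.2 were called lower, against 0.444%. Because a call in one of these comparisons is what brought each gene in, nothing is read from these counts against the background, and no p-value is given for them. Arrays of the groups did not overlap for 8, 8, 6 and 3 of the genes in these comparisons, against 46.4%, 50.9%, 36.2% and 36% of all probe sets. With the 3' minus 5' signal as a covariate, 2 genes stayed called between genotypes in control (PIP2.6 and TIP2.1) and the same 2 under hypoxia, and with that signal from only 3 of the 6 control pairs the counts were 1 and 0. Under hypoxia the 7 called genes then had differences of -1.78 to -0.91 with SEs of 0.23 to 0.49 (6 pairs) and of -1.84 to -0.93 with SEs of 0.32 to 0.71 (3 pairs), against SEs of 0.08 to 0.18 without the covariate. PIP2.3 was at -1.18 and -1.11, for example, and TIP3.1 at -1.12 and -1.35. In control, PIP2.6 was at -2.07 and -2.02 and TIP2.1 at -1.80 and -1.78, while TIP1.2 moved to -0.54 and -0.79.

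The median log2 difference of the 8 genes was -1.0 between genotypes in control, -1.33 under hypoxia, 0.46 for hypoxia in WT and -0.09 for hypoxia in AtHb1. Over all probe sets these medians were -0.014, -0.003, -0.028 and 0.003. The 8 genes were brought in by calls in these same comparisons, so their medians, here and by subfamily, are a description. Nothing is read from their distance to the medians of all probe sets. By subfamily, the genotype difference under hypoxia had a median of -1.1 for the 3 PIPs and -1.49 for the 4 TIPs, and it was -0.93 for NIP6.1. In control the TIPs divided, since TIP1.2 and TIP2.1 were lower in AtHb1 and both TIP3 genes were higher, which gave a median of -0.17. Comparisons that use the same group share its arrays and are not independent.

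**Figure D3:**
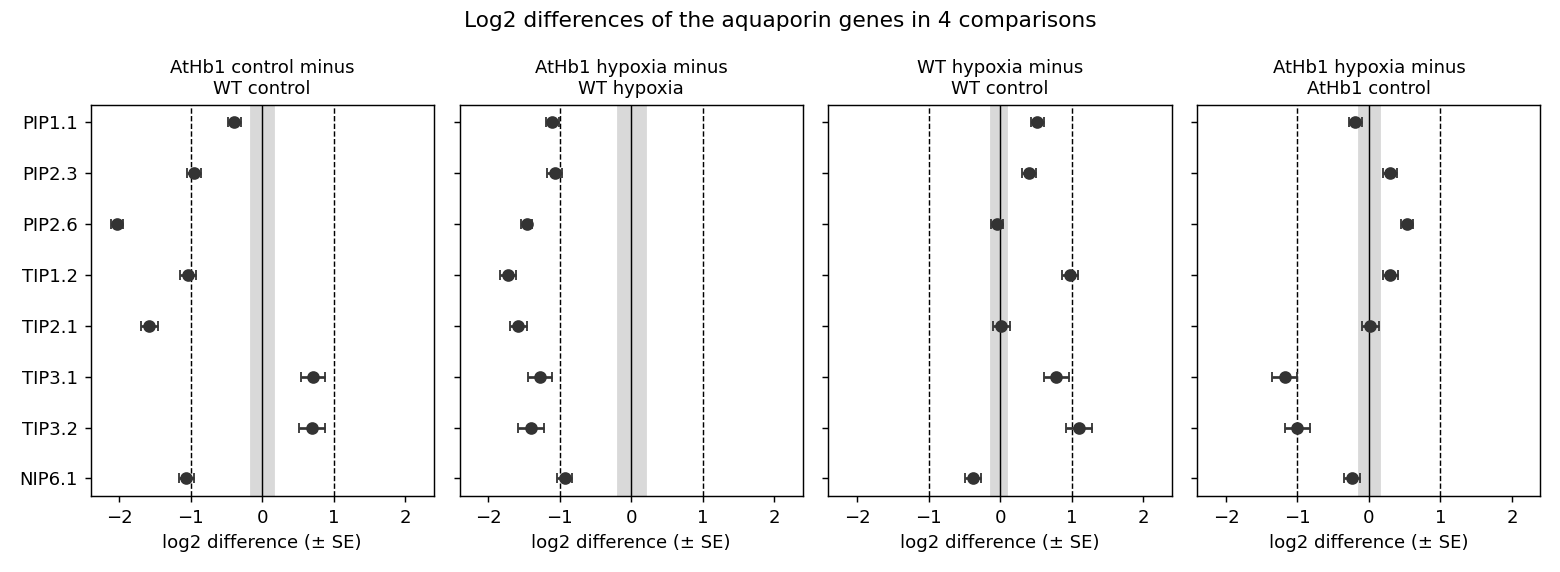
Log2 difference ± SE of each aquaporin gene in 4 comparisons, with dashed lines at the 2-fold limit and a grey band for all probe sets from the lower to the upper quartile. Under hypoxia all 8 genes lay left of 0 in AtHb1 against WT, from -1.72 to -0.93, and TIP3.1 and TIP3.2 changed side between the panels.

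Several values lay close to the 2-fold limit. Just inside it were TIP3.2 for hypoxia in AtHb1 (-1.0), TIP1.2 and NIP6.1 for genotype in control (-1.04 and -1.06) and PIP2.3 for genotype under hypoxia (-1.07). Just outside were TIP1.2 for hypoxia in WT (0.98), PIP2.3 for genotype in control (-0.95) and NIP6.1 for genotype under hypoxia (-0.93). The TIP3.2 call in AtHb1 was lost without AtHb1 control replicate 2 (-0.97), AtHb1 control replicate 3 (-0.94) or AtHb1 hypoxia replicate 2 (-0.77). Without WT control replicate 3 the TIP3.2 difference in WT was 0.91 and the TIP1.2 genotype difference in control -0.99, so that both calls were lost, and NIP6.1 lost its call in control without AtHb1 control replicate 1 (-0.94).

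Whether hypoxia acted differently in the genotypes is the question of the interaction, the hypoxia difference in AtHb1 minus that in WT. It is a difference of comparisons on which the genes had been selected, so its values are given as a description, with no p-value. TIP3.1 had an interaction of -1.98 (SE 0.23, 95% interval -2.48 to -1.48). TIP3.2 had -2.10 (SE 0.26, interval -2.65 to -1.55). These were the 2 genes called, both lower, where 1.51% of all probe sets were called lower.

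Smaller interactions were under the adjusted threshold of limma without reaching 2-fold. PIP1.1 had -0.71 (SE 0.13) and TIP1.2 had -0.67 (SE 0.15), both from a hypoxia difference above 0 in WT and a smaller or negative one in AtHb1. PIP2.6 had the opposite sign, 0.57 (SE 0.11), from differences of -0.04 in WT and 0.53 in AtHb1. TIP1.2 was no longer under the threshold with the 3-pair covariate (-0.59). With the TIP3 pair, 4 of 8 genes were under it with a lower and 1 with a higher value, where 5.3% and 6.98% of all probe sets were. Nothing is read from these counts either, since the genes were brought in by calls in the comparisons that make up the interaction.

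The remaining genes were not under the threshold. The 95% interval was -0.42 to 0.18 for PIP2.3, -0.36 to 0.36 for TIP2.1 and -0.19 to 0.46 for NIP6.1. These intervals leave room for moderate differences.

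The share of the sum of squares over the 12 arrays was mostly genotype for 6 genes and mostly interaction for the TIP3 pair. Genotype took 97% for TIP2.1, 95% for PIP2.6, 86.3% for NIP6.1, 85.4% for PIP2.3, 76.7% for TIP1.2 and 74.4% for PIP1.1. For TIP3.1 it took 6.3% and the interaction 77.3%, and for TIP3.2 these were 8.3% and 76.9%. Over all probe sets together, genotype took 40.7%, treatment 27%, interaction 13% and replicates 19.3%. These shares use the contrasts that brought the genes in and are a description.

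**Figure D4:**
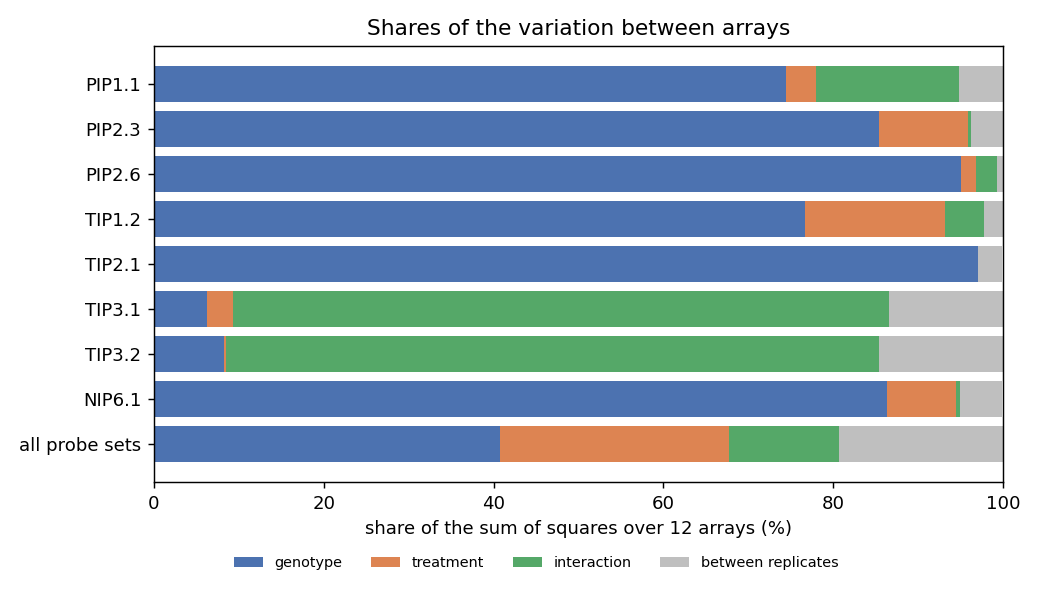
Stacked bars give, for each gene and for all probe sets together, the percentage of the sum of squares over 12 arrays due to genotype, treatment, their interaction and differences between replicates. Genotype took 74.4% or more for 6 genes, and the interaction 77.3% and 76.9% for TIP3.1 and TIP3.2.

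Some of the few measured marker genes differed with genotype. Between genotypes 17.5% and 15.7% of all probe sets passed limma's test as higher and lower in control, and 22.3% and 18.3% under hypoxia. BAN, an anthocyanidin reductase gene of the seed coat and the 1 of 7 seed coat genes measured, differed by -0.89 in control and -1.07 under hypoxia between AtHb1 and WT. Of 10 green tissue genes 3 were measured: RCA, which encodes Rubisco activase, differed by -0.35 and -0.55, LHCB4.2, an antenna protein gene, by 0.59 and 0.21 (its arrays overlapped under hypoxia), and the carbonic anhydrase gene CA1, named through the called-gene table, by -1.40 and -2.20. EXPA7, the 1 measured of 5 root genes, differed by -0.32 and -0.46. Its group means ran from 5.52 to 6.24, near the log2 signal of 6 that was set as the dim limit. The embryo gene OLEO3 (-0.08 and -0.20) and the pollen gene ANX1 (-0.07 and -0.01) did not pass limma's test, nor did LHCB4.2 under hypoxia. Other pollen genes follow below. The part of tissue makeup in the aquaporin differences was not tested.

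Among pollen genes 3 of 6 were measured. ANX1 stayed between group means of 4.48 and 4.58, under the dim limit of 6. AGP6 and AGP11, both named through the called-gene table, were highest in WT control (8.56 and 7.58). Between AtHb1 and WT they differed by -1.26 and -1.31 in control and by -0.14 and -0.28 under hypoxia. With hypoxia they differed by -1.51 and -1.36 in WT and by -0.40 and -0.32 in AtHb1. For both genes the genotype difference under hypoxia and the hypoxia difference in AtHb1 did not pass limma's test.

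Proton pumps of the vacuolar type, of which some but not all energise the membrane that carries the TIPs, had named probe sets for 6 of 13 genes. Between genotypes 1 passed limma's test as higher and 3 as lower in both control and hypoxia, where 17.5% and 15.7% of all probe sets passed as higher and lower in control and 22.3% and 18.3% under hypoxia. One of the 3 lower genes, VHA-B2 (-1.05 in control and -0.49 under hypoxia), was named through the called-gene table, and among the 5 named by annotation 1 was higher and 2 were lower. VHA-a2 differed by 0.33 in control and VHA-a3 by -0.54, both tonoplast forms of the pump's membrane subunit. VHA-a1, which is not counted among the tonoplast forms here, differed by -0.35. With hypoxia 0 of the 6 passed limma's adjusted test in either genotype, where 8.7% and 7.13% of all probe sets passed as higher and lower in WT and 12.6% and 9.51% in AtHb1. SYP121, a membrane fusion protein gene that takes part in PIP delivery and was named through the called-gene table, was higher under hypoxia by 1.31 in WT and 0.92 in AtHb1. LEC2, from the same table, was the 1 of 5 regulators of seed maturation measured. It differed by -0.54 with hypoxia in WT and by 0.36 in AtHb1, where its arrays overlapped, signs opposite to those of the TIP3 genes. Its genotype difference in control (0.29) had the sign of the TIP3 genes, and that under hypoxia (1.18) the opposite sign. The part of seed maturation in the TIP3 pattern was not tested.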

How the data were processed

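The deposited values were log2 signals of 12 ATH1 arrays that the authors made with RMA (MAS5 is also named in the submitters' processing notes), and no further normalization was applied. The 64 AFFX control probe sets were left out, and 22746 were tested with limma 3.58.1 in R 4.3.3, with 1 mean per group and Benjamini-Hochberg adjustment over all probe sets. Calls needed an adjusted p under 0.05 and over 2-fold change. Platform annotation named 13436 probe sets, a further 493 were named by the study's list of called genes, and 8817 stayed unnamed. All 35 loci matched the RefSeq gene table. Per the study's methods, replicates were biological and came from repeated treatment runs, each a pool of siliques, and how runs map to the replicate numbers is not given in the sources used here. With 3 against 3 arrays an exact two-sided permutation test cannot go below 0.1.

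Members and lists were chosen with earlier results of these data known. Values by array were given for genes called in a comparison or passing the interaction test, and at most 4 genes from another list. Exceptions, named after their values were seen, are the marker genes that did not pass. The test was checked on simulated data. Alternatives were fold limits, array subsets and weights, variance settings, dim and shared probe sets, scaling, a replicate block, the 3' minus 5' covariate and leaving out each array. The 3' minus 5' measure was first computed from 3 of the 6 control pairs. It was extended to all 6, as planned, after the results of the 3-pair fit had been seen, and both are given. The number of arrays limits the precision.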

Additional observations from a re-analysis of the deposited data

Results flagged for a closer look

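In limma's interaction fit 5 of the 8 genes were under the adjusted threshold, as were 6.98% (higher) and 5.3% (lower) of all probe sets. The 8 genes had been brought in by calls in the comparisons that make up this interaction. The count, and whether it held when arrays were left out, is therefore a description and no test of a differing response. The hypoxia difference in AtHb1 minus that in WT was -1.98 for TIP3.1 and -2.10 for TIP3.2. In both genes the 3 WT arrays under hypoxia were above all WT controls, and the 3 AtHb1 arrays under hypoxia were below all AtHb1 controls. PIP1.1 differed by -0.71 and TIP1.2 by -0.67, where the WT arrays were higher under hypoxia without overlap and the AtHb1 groups overlapped. PIP2.6 differed by 0.57, where the AtHb1 groups were apart and the WT groups overlapped. Leaving out 1 array took none of these 5 over the threshold, and TIP1.2 went over it with the 3-pair covariate (-0.59).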

How the results depend on the processing

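Main counts of called genes were 4 (genotype, control), 7 (genotype, hypoxia), 1 (hypoxia, WT), 2 (hypoxia, AtHb1) and 2 (interaction). With no fold limit they were 8 for genotype in control, 6 for hypoxia in WT, 4 for hypoxia in AtHb1 and 5 for the interaction, and with a 1.5-fold limit 7 for genotype in control, 3 for hypoxia in WT and 4 for the interaction. Array weights gave 2 for hypoxia in WT. With the 3' minus 5' signal of 6 control pairs as a covariate, counts were 2, 2, 2 and 1 in the first 4 comparisons and 2 for the interaction. With only 3 pairs, an alternative recorded after seeing the data, they were 1, 0, 2, 1 and 2. TIP1.2 was then no longer under the interaction threshold (-0.59). Both covariates moved with genotype, and to a lesser degree with the oxygen level. Genotype calls lost under the 6-pair covariate were those of TIP1.2 and NIP6.1 in control and of PIP1.1, PIP2.3, TIP1.2, TIP3.1 and TIP3.2 under hypoxia, and the 3-pair covariate ended also those of TIP2.1 under both oxygen levels and of PIP2.6 under hypoxia, with the sign kept in each. For the genes called under hypoxia, SEs were 0.08 to 0.18 without a covariate and 0.23 to 0.49 with 6 pairs. Differences of TIP1.2 and NIP6.1 in control (-0.54 and -0.78, 6 pairs), of TIP3.2 under hypoxia (-0.91, 6 pairs) and of PIP1.1 under hypoxia (-0.93, 3 pairs) also came under 2-fold. Leaving out each array gave 3 to 5, 7 to 8, 1 to 2, 1 to 2 and 2 to 2 genes. The hypoxia count in WT was 2 without WT hypoxia replicate 3, where TIP1.2 joined (1.02), and the AtHb1 count was 1 without the 3 arrays named for TIP3.2. PIP2.3 was called in control without WT control replicate 3 (-1.02) or AtHb1 control replicate 3 (-1.05), and NIP6.1 under hypoxia without AtHb1 hypoxia replicate 1 (-1.02).

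Values near 0 changed sign. For TIP2.1, a second quantile normalization, median centring, the 6-pair and the 3-pair covariate gave -0.02, -0.04, -0.03 and -0.01 for hypoxia in WT and -0.06, -0.06, -0.01 and -0.08 in AtHb1, and its interaction was -0.04, -0.01 and -0.07 under the first 2 and the last. Leaving out arrays moved TIP2.1 from -0.06 to 0.16 in WT, from -0.05 to 0.09 in AtHb1 and from -0.14 to 0.08 in the interaction, and PIP2.6 in WT from -0.09 to 0.01. The cause was not tested. Same-numbered replicates correlated between -0.11 and 0.12, and 4 of 12 arrays matched best with their own number, so no pairing by number was seen. This cannot exclude a pairing. With a replicate block the counts were 4, 7, 1, 2 and 2. Naming by the platform annotation alone left no member and gave no value.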
